A study of Mus musculus with 6 samples.

Results

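Collagens are the triple-helical proteins of the extracellular matrix, and each is built from alpha chains that are encoded by separate genes. The chains were taken by symbol: every probe set whose gene symbol is Col, a number, the letter a and a number was kept, whatever its value. This gave 44 chains of 20239 genes with a symbol on the Affymetrix Mouse Gene 1.0 ST array. They fall into 11 fibrillar chains, 6 basement membrane chains (type IV), 3 network chains (types VIII and X), 6 beaded filament chains (type VI), 9 fibril-associated (FACIT) chains and 9 chains of other types. Each chain was measured by 1 probe set, and none was removed by a filter on low values.

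The study compared heart ventricles of mice that lack Hspa4, a heat shock protein of the Hsp110 family that acts as a partner of Hsp70, with those of wild-type mice. All animals were male, of the 129/Sv background and 3.5 weeks old, and no other allele or treatment is named for either genotype. The 6 arrays are 3 labelled Hspa4-/- and 3 labelled Hspa4+/+, each taken to be a separate mouse because the labels give 3 mice per genotype. The labels name no cell type or promoter that limits the deletion.

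Fibrillar collagens, above all types I and III, form the tensile fibres between heart muscle cells and are made mainly by fibroblasts. Type IV collagen forms the sheet of the basement membrane around heart muscle cells, capillaries and smooth muscle, together with laminins, nidogens and perlecan. Type VI filaments link that sheet to the fibres, the FACIT chains decorate the surface of fibrils, and the network chains build lattices. The triple helix needs hydroxylation and folding in the endoplasmic reticulum, and the secreted protein is trimmed and cross-linked outside the cell.

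All values are log2 signals as the authors deposited them, and a difference is the mean of the Hspa4-/- arrays minus the wild-type mean. The level of 1 probe set cannot be set against that of another, so levels were compared between arrays only. The test was limma's moderated test over all 20239 genes with Benjamini-Hochberg adjustment, and a gene passed at an adjusted p under 0.05. In RNA from whole ventricle, fewer cells of a type and less RNA per cell cannot be told apart. No background signal came with the values, and precision is limited by the small number of arrays.

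Hspa4 itself went against 1 label. The arrays labelled Hspa4-/- had log2 values of 9.33, 6.63 and 6.75, and the wild-type arrays 9.74, 9.50 and 9.48. The first array labelled Hspa4-/- lay at -0.24 from the wild-type mean on the log2 scale, whereas the other two lay at -2.95 and -2.83. With all 6 arrays the difference was -2.01 ± 0.58 (SE) and did not pass (adjusted p = 0.263), and p was 0.1 in an exact permutation test (two-sided), which groups of 3 and 3 cannot go below. Without the library labelled Hspa4-/- 1 the level was 7.40-fold lower (log2 difference -2.89 ± 0.10, SE, adjusted p = 9.37e-06). The choice of the array to remove was made on the Hspa4 values themselves. Its removal favours a small SE and p for Hspa4, and neither is an independent test of that gene. Most results are therefore given with all 6 arrays and again with the 5 arrays that remain without that library. The summed signals and the differences of some chains are given with 6 arrays only. Directions drawn from the 6 arrays rest on the label of that library. The array medians ran from 6.42 to 6.48 and the SDs from 1.19 to 1.27. Markers of heart muscle cells, such as Myh6 and Tnnt2, were high on all arrays: the log2 of the summed signal of 10 such genes was 15.65 to 15.77 on the arrays labelled Hspa4-/- and 15.53 to 15.62 on the wild-type arrays. These ranges do not overlap. The sum of 7 epithelial genes of kidney, lung and skin was 8.54 to 8.69 and 8.61 to 8.72.

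None of the 44 chains passed the test. With all 6 arrays 0 chains passed, where 0% of all genes did, and with 5 arrays 0 chains passed, where 0.440% of all genes did (0.232% higher and 0.208% lower). The basement membrane chains Col4a1 and Col4a2 had an unadjusted p under 0.05 with 6 arrays and both were higher, against 11.2% of all genes (5.64% higher and 5.53% lower). Those chains and Col4a3, which was lower, had an unadjusted p under 0.05 with 5 arrays, against 14.9% of all genes (8.55% higher and 6.36% lower). At 2 and 3 of 44, both counts are under the share over all genes. Differences ran from -0.19 (Col14a1) to 0.39 (Col4a1 and Col4a2) with 6 arrays and from -0.20 (Col4a3) to 0.41 (Col4a2) with 5. The 95% confidence intervals of the 44 chains stayed between -0.40 and 0.66 with 6 arrays and between -0.43 and 0.72 with 5. No interval reached a change in measured signal above 1.65-fold. By mean signal, 12 chains lay in the lowest 50% of genes, and without a background signal it is not known which chains were expressed. The median difference over the 44 chains was 0.00 with 6 arrays and -0.06 with 5, beside -0.01 and -0.02 over all genes. Of the 44 chains, 21 (47.7%) were above the wild-type mean with 6 arrays, as were 45.8% of all genes, and 17 (38.6%) with 5 arrays, as were 43.3% of all genes.

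**Figure D1:**
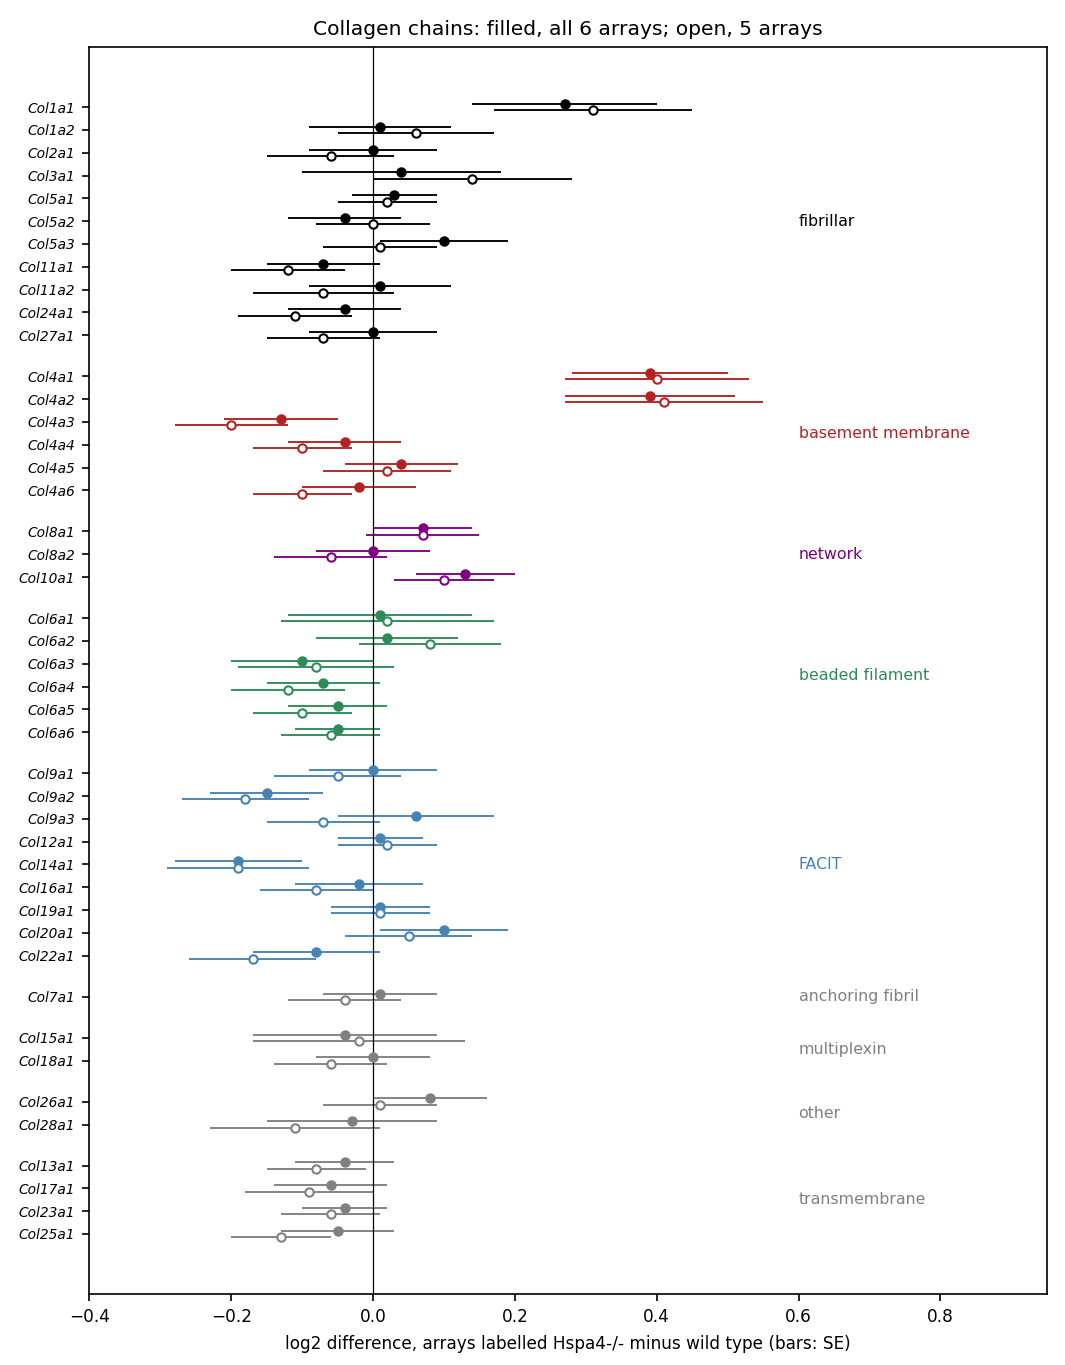
Log2 difference of each of the 44 collagen chains (x axis, arrays labelled Hspa4-/- minus wild type) with its standard error as a bar; the chains are listed by type on the y axis. Filled points use all 6 arrays and open points the 5 arrays without the library labelled Hspa4-/- 1; Col4a1 and Col4a2 stand at 0.39 to 0.41 and Col1a1 at 0.27 and 0.31, and the other chains lie between -0.20 and 0.14.

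The 2 groups did not overlap for 4 chains with all 6 arrays. Col4a1, Col4a2 and Col10a1 were higher on every array labelled Hspa4-/- than on any wild-type array, and Col6a6 was lower. Over all genes 15.1% did not overlap (6.08% higher and 9.07% lower). With 5 arrays the same 3 chains lay higher and 8 lay lower, namely Col4a3, Col4a4, Col6a5, Col6a6, Col11a1, Col22a1, Col24a1 and Col25a1. Over all genes 33.3% did not overlap with 5 arrays (14.4% higher and 18.9% lower), so 11 of 44 chains is below that share. These counts turn on single arrays: out of the 5, leaving out wild-type replicate 2 gave 3 higher and 21 lower. Leaving out wild-type replicate 3 gave 7 higher. The share over all genes rose from 15.1% with 6 arrays to 33.3% with 5, and it is not given for fewer arrays. The counts with an array left out therefore cannot be set against all genes. Among genes outside the lowest 50%, 3 chains lay lower with 5 arrays, and the share over those genes is not given either. By type, the median difference with 6 and with 5 arrays was 0.01 and 0.00 for fibrillar chains, 0.01 and -0.04 for basement membrane chains, and 0.07 and 0.07 for network chains. It was -0.05 and -0.07 for beaded filament chains, 0.00 and -0.07 for FACIT chains, and -0.04 and -0.06 for the other types. None of these medians is as large as 0.10, while the 6 basement membrane chains ran from -0.13 to 0.39 among themselves with 6 arrays. Without the lowest 50% of genes, which leaves out chains with low values, the basement membrane median was 0.22 and 0.21.

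The type IV chains are the ones that differ most among themselves. The products of Col4a1 and Col4a2 assemble with each other in most basement membranes, and those of Col4a3 to Col4a6 form other trimers in fewer tissues. Their genes lie in head-to-head pairs, Col4a1 beside Col4a2 on chromosome 8, Col4a3 beside Col4a4 on chromosome 1, and Col4a5 beside Col4a6 on the X chromosome. The starts of Col4a1 and Col4a2 are shown because these were the 2 chains with the largest differences and they share 1 promoter region. In the RefSeq annotation (GRCm38.p6) the transcript of Col4a2 starts on the forward strand at chr8:11312805 and that of Col4a1 on the reverse strand at chr8:11312826, so their first bases overlap. The 22 bases from one start to the other are printed on the forward strand, 5′ to 3′, with a match to GGGCGG, the GC box, in capitals. The second sequence is a stretch of 30 bases upstream of Col4a1, printed on the reverse strand (chr8:11312954-11312983), with a match to CCAAT on the other strand in capitals.
Col4a1 and Col4a2 starts (chr8:11312805-11312826, forward strand): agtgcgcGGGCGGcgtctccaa
Upstream of Col4a1 (chr8:11312954-11312983, reverse strand): tgcttgcccgggATTGGcgagccaaggggc

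The second match lies at -141 from the Col4a1 start. Windows from 250 bases before to 50 bases after a start were given for 35 of the 44 chains. On either strand, GGGCGG was found for 22 of the 35 (62.9%), against 35.7% of 32851 windows of all genes, and CCAAT for 13 (37.1%), against 37.4%. TATAAA was found for 5 (14.3%), against 13.6%. Matches of different motifs were counted separately and can share bases. The windows of Col4a1 and Col4a2, which overlap, both hold GGGCGG and CCAAT and no TATAAA. A match describes the letters of the window and is not a site of binding.

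Col4a1 had log2 values of 7.99, 7.77 and 8.26 on the arrays labelled Hspa4-/- and 7.65, 7.59 and 7.61 on the wild-type arrays. Every array labelled Hspa4-/- lay above every wild-type array, and the means were 8.01 ± 0.25 and 7.61 ± 0.03 (SD, n = 3). The difference of 0.39 ± 0.11 (SE), or 1.31-fold, did not pass (adjusted p = 0.256, limma), with a 95% interval from 0.14 to 0.64. With 5 arrays it was 0.40 ± 0.13 (adjusted p = 0.200).

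For Col4a2 the order of the arrays labelled Hspa4-/- was the same. Its log2 values were 8.41, 8.19 and 8.73 on the arrays labelled Hspa4-/- and 8.09, 8.04 and 8.02 on the wild-type arrays. The means were 8.44 ± 0.27 and 8.05 ± 0.04 (SD, n = 3), again with no overlap. The difference of 0.39 ± 0.12 (SE) did not pass (adjusted p = 0.276, limma), and with 5 arrays it was 0.41 ± 0.14 (adjusted p = 0.222). Within each array the value of Col4a1 minus that of Col4a2, set against its wild-type mean, was 0.02, 0.02 and -0.03 on the arrays labelled Hspa4-/- and -0.01, -0.02 and 0.03 on the wild-type arrays, so this difference stayed within 0.03 of its wild-type mean on every array.

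A single array set much of the size of both differences. Replicate 3 labelled Hspa4-/- stood 0.65 above the wild-type mean for Col4a1 and 0.68 above it for Col4a2, against 0.15 and 0.13 for replicate 2. Without replicate 3 the differences were 0.26 and 0.25 with the other 5 arrays. Without both replicate 1 and replicate 3 they were 0.15 and 0.13, resting on 1 array labelled Hspa4-/-, and with replicate 3 alone they were 0.65 and 0.68. The library labelled Hspa4-/- 1 lay between the other two for both chains, although its Hspa4 level was near that of the wild type.

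**Figure D2:**
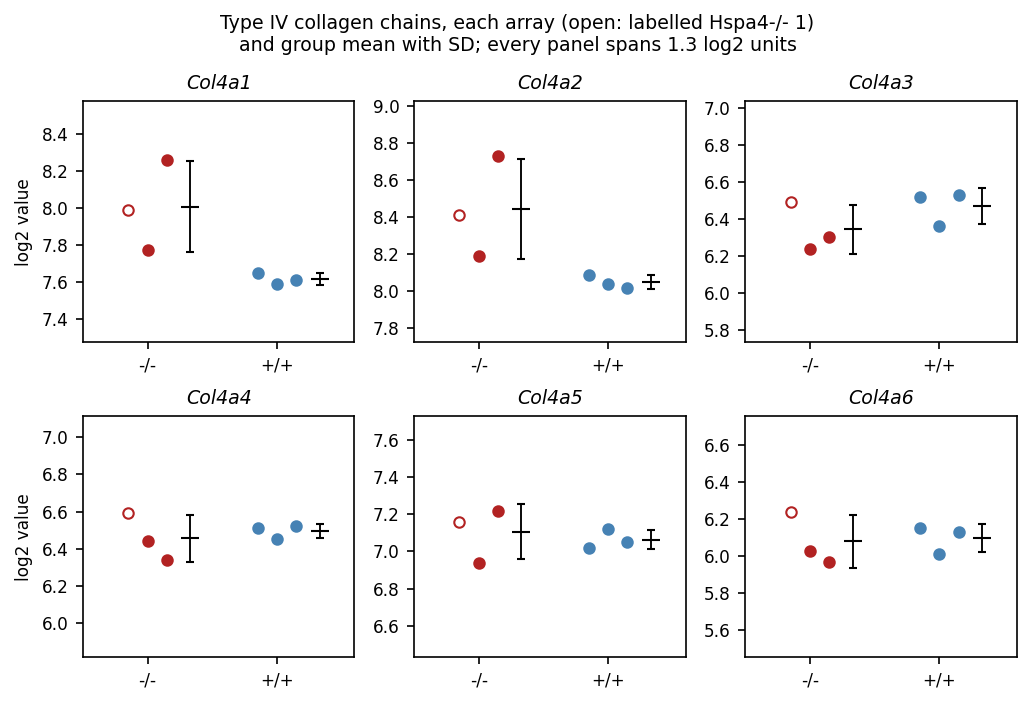
Log2 value (y axis) of the 6 type IV collagen chains on each array, with the mean and SD of each group; -/- marks arrays labelled Hspa4-/- (the open point is replicate 1) and +/+ wild-type arrays, and all panels span the same height. Col4a1 and Col4a2 lie higher on all 3 arrays labelled Hspa4-/-, and the other 4 chains overlap between the groups.

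The other 4 chains of type IV overlapped between the groups with 6 arrays. Col4a3 had log2 values of 6.49, 6.24 and 6.30 on the arrays labelled Hspa4-/- and 6.52, 6.36 and 6.53 on the wild-type arrays. The 2 arrays with low Hspa4 lay below all wild-type arrays, and the library labelled Hspa4-/- 1 lay among them. The difference was -0.13 ± 0.08 (SE) with 6 arrays (adjusted p = 0.651) and -0.20 ± 0.08 with 5 (adjusted p = 0.293, limma).

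Col4a4, the partner of Col4a3, had 6.59, 6.44 and 6.34 against 6.51, 6.45 and 6.52. Its groups overlapped with 6 arrays, with a difference of -0.04 ± 0.08 (SE), and it was -0.10 ± 0.07 with 5. Col4a5 had 7.16, 6.94 and 7.22 against 7.02, 7.12 and 7.05, and its difference was 0.04 ± 0.08 with 6 arrays and 0.02 ± 0.09 with 5. The arrays labelled Hspa4-/- held both its highest and its lowest values.

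Col4a6 had 6.24, 6.03 and 5.97 against 6.15, 6.01 and 6.13, with differences of -0.02 ± 0.08 (SE) and -0.10 ± 0.07. The 95% intervals with 6 arrays were -0.31 to 0.06 for Col4a3, -0.21 to 0.14 for Col4a4, -0.14 to 0.23 for Col4a5 and -0.21 to 0.17 for Col4a6. The intervals of Col4a1 (0.14 to 0.64) and Col4a2 (0.12 to 0.66) overlap those of Col4a5 and Col4a6. That of Col4a4 reaches into that of Col4a2, and that of Col4a3 lies below both. No chain was tested against another.

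Among the fibrillar chains, none of the 11 passed in either form. The highest difference was that of Col1a1, the alpha 1 chain of type I, the main fibre collagen of the heart. Its log2 values were 9.50, 9.33 and 9.89 on the arrays labelled Hspa4-/- and 9.29, 9.24 and 9.37 on the wild-type arrays. Replicates 1 and 3 labelled Hspa4-/- lay above all wild-type arrays and replicate 2 among them. The means were 9.57 ± 0.29 and 9.30 ± 0.06 (SD, n = 3), and the difference of 0.27 ± 0.13 (SE) did not pass (adjusted p = 0.461). With 5 arrays it was 0.31 ± 0.14 (adjusted p = 0.358), and it was 0.03 there when replicate 3 was also left out.

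Col1a2, which joins Col1a1 in the same triple helix, had 8.45, 8.41 and 8.77 against 8.62, 8.44 and 8.54. Its groups overlapped, and the difference was 0.01 ± 0.10 (SE) with 6 arrays and 0.06 ± 0.11 with 5, with 95% intervals from -0.21 to 0.24 and from -0.19 to 0.31. The value of Col1a1 minus that of Col1a2 within an array, set against its wild-type mean, was 0.28, 0.15 and 0.35 on the arrays labelled Hspa4-/- and -0.10, 0.03 and 0.06 on the wild-type arrays. These did not overlap, and the mean shift was 0.26 with 6 arrays and 0.25 with 5. The shift was computed after the values had been seen and carries no test. Of 7 such pairs of partner chains it was the only one in which the 6 arrays did not overlap, and the other 6 had shifts from -0.09 to 0.07.

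Col3a1, the chain of type III and the second main fibre collagen, had 7.96, 8.05 and 8.46 against 8.27, 7.88 and 8.20. Replicate 3 labelled Hspa4-/- was the highest of the 6 arrays and replicate 2 of the wild type the lowest. The difference was 0.04 ± 0.14 (SE) with 6 arrays (95% interval -0.27 to 0.36) and 0.14 ± 0.14 with 5 (-0.19 to 0.47). Col3a1 and Col5a2 are neighbours on chromosome 1.

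Type V chains co-assemble with type I and set fibril width. Col5a1 had 7.07, 7.00 and 7.07 against 6.98, 7.00 and 7.05, with a difference of 0.03 ± 0.06 (SE). Col5a2 had 6.79, 6.79 and 7.02 against 6.90, 6.90 and 6.92, with a difference of -0.04 ± 0.08. Both overlapped between the groups, and with 5 arrays the differences were 0.02 and 0.00.

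The other 6 fibrillar chains are best known from cartilage, bone or low-level expression elsewhere. Their differences with 6 arrays ran from -0.07 (Col11a1) to 0.10 (Col5a3), with Col2a1 and Col27a1 at 0.00, Col11a2 at 0.01 and Col24a1 at -0.04. With 5 arrays Col5a3 was at 0.01, and the 5 others were at -0.06 (Col2a1), -0.07 (Col11a2 and Col27a1), -0.11 (Col24a1) and -0.12 (Col11a1). The forms differ only by the library labelled Hspa4-/- 1, on which all 6 lay above their wild-type mean, from 0.02 for Col11a1 to 0.29 for Col5a3. The 9 measured markers of cartilage and bone, such as Acan and Ibsp, had a median difference of -0.04 with 6 arrays and -0.08 with 5, and 0 had an unadjusted p under 0.05.

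**Figure D3:**
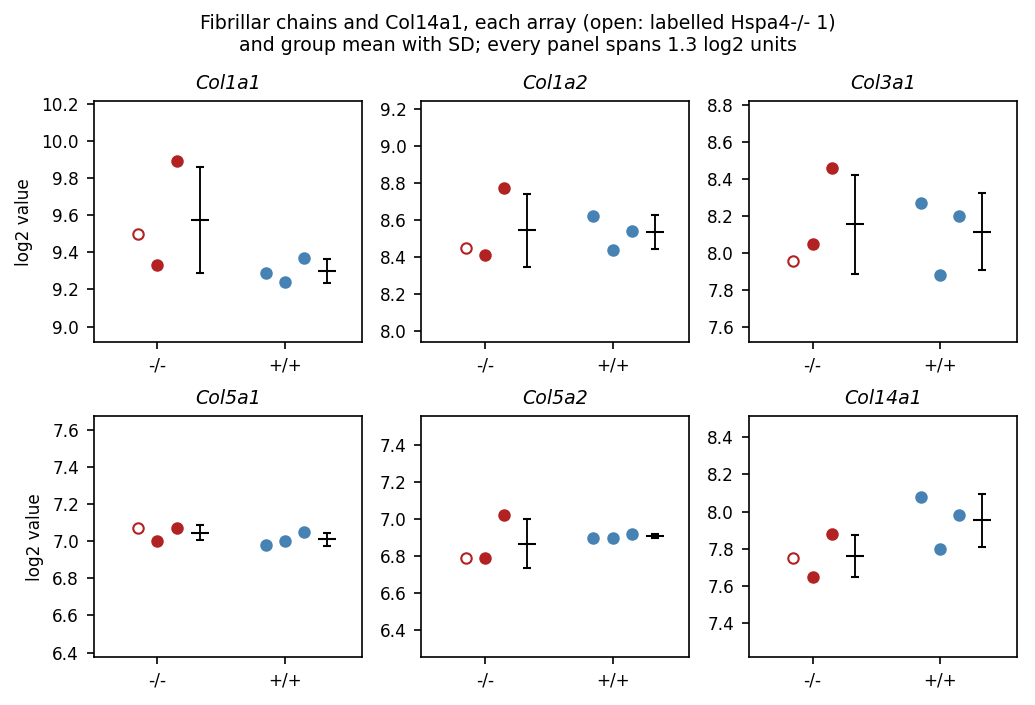
Log2 value (y axis) of 5 fibrillar chains and of the FACIT chain Col14a1 on each array, with the mean and SD of each group; -/- marks arrays labelled Hspa4-/- (the open point is replicate 1) and +/+ wild-type arrays, and all panels span the same height. Replicate 3 labelled Hspa4-/- is the highest array for Col1a1, Col1a2, Col3a1 and Col5a2, and the groups overlap in all 6 panels.

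The network chains did not pass either. Col8a1 and Col8a2, the short chains of type VIII found around vessels, had differences of 0.07 ± 0.07 and 0.00 ± 0.08 (SE) with 6 arrays. Col8a1 had 6.88, 6.80 and 6.96 against 6.73, 6.82 and 6.89, and Col8a2 had 6.85, 6.80 and 6.59 against 6.68, 6.78 and 6.79. The groups overlapped for both. Col10a1, the chain of growth plate cartilage, was named because its groups did not overlap: it had 5.99, 5.92 and 5.87 against 5.79, 5.71 and 5.87. The lowest array labelled Hspa4-/- and the highest wild-type array agree at the 2 decimals printed, and the difference of 0.13 ± 0.07 did not pass (adjusted p = 0.520, and 0.567 with 5 arrays).

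The beaded filament chains lay close to the wild type. Col6a1, Col6a2 and Col6a3 form the common type VI molecule made by fibroblasts. Col6a1 had 7.96, 7.82 and 8.19 against 8.22, 7.74 and 8.00, with a difference of 0.01 ± 0.13 (SE). Col6a2 had 7.70, 7.76 and 7.98 against 7.96, 7.70 and 7.71, with a difference of 0.02 ± 0.10. Col6a3 had 7.30, 7.23 and 7.49 against 7.57, 7.28 and 7.48, with a difference of -0.10 ± 0.10.

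In all 3 chains the highest wild-type array was replicate 1 and the highest array labelled Hspa4-/- was replicate 3, and the spread within each group was larger than the difference between them. With 5 arrays the differences were 0.02, 0.08 and -0.08. Col6a6, an alternative to the alpha 3 chain, had 6.98, 6.98 and 6.94 against 7.04, 6.99 and 7.03, so that the groups were apart by a narrow margin. Its difference was -0.05 ± 0.06 with 6 arrays and -0.06 ± 0.07 with 5 (adjusted p = 0.829 and 0.738). The groups of Col6a6 overlapped after quantile normalisation of the 6 arrays, which left 0 chains apart in that direction. Col6a4 and Col6a5, its neighbours on chromosome 9, were at -0.07 and -0.05 with 6 arrays and at -0.12 and -0.10 with 5.

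Of the 9 FACIT chains, Col14a1 had the lowest difference. It binds the surface of collagen fibrils and is a product of fibroblasts. Its log2 values were 7.75, 7.65 and 7.88 on the arrays labelled Hspa4-/- and 8.08, 7.80 and 7.98 on the wild-type arrays. The groups overlapped through replicate 3 labelled Hspa4-/- and replicate 2 of the wild type. Its difference from the wild-type mean, -0.19 ± 0.09 (SE), did not pass (adjusted p = 0.468, limma), and with 5 arrays it was -0.19 ± 0.10 (adjusted p = 0.434).

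Col12a1, the other FACIT chain that coats type I fibrils, had 6.04, 6.14 and 6.05 against 6.02, 6.08 and 6.10, a difference of 0.01 ± 0.06 (SE). The 3 chains of type IX, a cartilage collagen, were at 0.00 (Col9a1), -0.15 (Col9a2) and 0.06 (Col9a3), and at -0.05, -0.18 and -0.07 with 5 arrays. Col16a1, Col19a1 and Col20a1 were at -0.02, 0.01 and 0.10 with 6 arrays. Col22a1, a chain of tissue junctions such as that of muscle and tendon, was at -0.08 with 6 arrays and -0.17 ± 0.09 with 5 (adjusted p = 0.427).

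The 9 chains of other types gave no call. The multiplexins of basement membrane zones have large non-helical ends, and that of type XVIII yields endostatin. Col15a1 had 7.87, 7.62 and 8.24 against 7.99, 7.89 and 7.97, and Col18a1 had 6.70, 6.50 and 6.52 against 6.54, 6.48 and 6.68. For Col15a1 the SD was 0.31 among the arrays labelled Hspa4-/- and 0.05 among the wild-type arrays, and replicates 2 and 3 labelled Hspa4-/- held its lowest and highest values. The differences of Col15a1 and Col18a1 were -0.04 ± 0.13 and 0.00 ± 0.08 (SE).

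The anchoring fibril chain Col7a1, best known from skin, was at 0.01 with 6 arrays and -0.04 with 5. The 4 transmembrane chains Col13a1, Col17a1, Col23a1 and Col25a1 ran from -0.06 to -0.04 with 6 arrays and from -0.13 to -0.06 with 5. Col26a1 and Col28a1 were at 0.08 and -0.03 with 6 arrays and at 0.01 and -0.11 with 5.

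Many of the chains shared an array pattern that the genotype labels do not give. The library labelled Hspa4-/- 1 held the highest value of 14 chains and wild-type replicate 3 that of 13, and these were the 2 highest arrays for 17 of the 44 chains. Wild-type replicate 2 held the lowest value of 16 chains and the highest of 0. The median of the chains' differences from the wild-type mean was 0.08, -0.06 and -0.07 on the arrays labelled Hspa4-/- and 0.00, -0.08 and 0.06 on the wild-type arrays. The same 2 arrays had the highest array medians over all genes, 6.48 and 6.47, and the lowest SDs, 1.20 and 1.19. The part of these array-wide values in the chains' pattern was not tested.

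**Figure D4:**
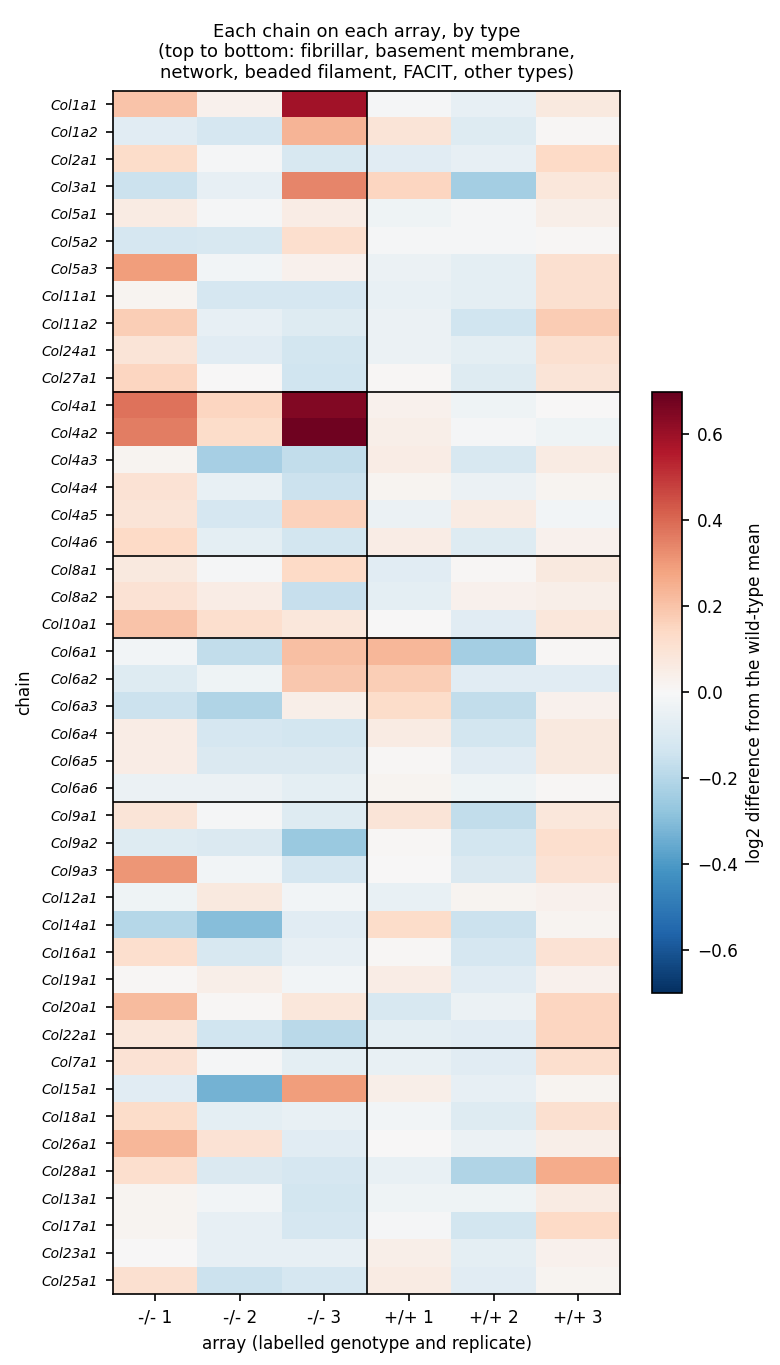
Colour gives the log2 difference of each chain (y axis, by type) on each array (x axis) from the wild-type mean of that chain. Red is higher and blue lower; Col4a1, Col4a2 and Col1a1 are red on the arrays labelled Hspa4-/- and most strongly on replicate 3, and many other chains are red on -/- 1 and +/+ 3 together.

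The partner genes of collagen were read from lists by role. In hydroxylation and folding, 15 of 17 listed genes were measured. With 6 arrays 0 passed, and with 5 arrays 1 passed, lower, and 0 higher, where 0.440% of all genes passed. That gene was P4ha1, a catalytic subunit of the prolyl 4-hydroxylase that makes the helix stable. Its log2 values were 7.67, 7.49 and 7.45 on the arrays labelled Hspa4-/- and 8.19, 8.00 and 7.97 on the wild-type arrays, with no overlap.

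P4ha1 fell by 0.58 on the log2 scale with 5 arrays (SE 0.08, adjusted p = 0.0326), and the difference was -0.51 ± 0.09 with 6 (adjusted p = 0.210), where it passed with array weights (-0.57, adjusted p = 0.0451). The call with 5 arrays was lost with array medians subtracted (adjusted p = 0.0594) and without any 1 of 4 arrays: 0.0977 and 0.182 without replicates 2 and 3 labelled Hspa4-/-, and 0.132 and 0.167 without replicates 1 and 3 of the wild type. Plod2, a lysyl hydroxylase, was at -0.32 with 6 arrays and -0.39 with 5 (adjusted p = 0.172), where it was -0.59 without replicate 2 labelled Hspa4-/- and -0.18 without replicate 3. P3h2, a prolyl 3-hydroxylase of type IV collagen, was at 0.39 and 0.60 (adjusted p = 0.0586). Serpinh1, the collagen chaperone Hsp47, was at 0.00 and -0.05. The median of the list was 0.02 with 6 arrays and 0.05 with 5.

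In processing and cross-linking, 14 of 15 genes were measured and 0 passed in either form. Of these, 5 were higher and 1 was lower at an unadjusted p under 0.05 in both forms, beside 11.2% of all genes with 6 arrays and 14.9% with 5. The medians were 0.07 and 0.17. Lox, the lysyl oxidase that starts cross-links, was at 0.32 with 6 arrays and 0.38 with 5 (adjusted p = 0.234 and 0.0778). Furin, a protease that activates precursors, was at 0.31 and 0.35 (adjusted p = 0.234 and 0.0999). Of 15 proteins that sit on fibrils, all measured, 0 passed, and 5 were higher and 1 lower at an unadjusted p under 0.05 in both forms, beside the same 11.2% and 14.9%. Their medians were 0.01 and -0.01. The small proteoglycan Bgn was at 0.32 and 0.45 (adjusted p = 0.393 and 0.0999), and Ogn, another, was at -0.34 and -0.31 (adjusted p = 0.220 and 0.146).

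The 12 basement membrane partners of type IV collagen were all measured and 0 passed. Sparc is also in the list of fibril proteins and Pxdn in that of processing and cross-linking, so the counts of these lists share genes. All 12 differences were above 0 in both forms, from 0.00 (Lama2) to 0.53 with 6 arrays and from 0.07 to 0.49 with 5, where 45.8% and 43.3% of all genes were. The median was 0.23 with 6 arrays and 0.25 with 5, beside -0.01 and -0.02 over all genes. At an unadjusted p under 0.05, 6 were higher with 6 arrays and 7 with 5, beside 5.64% and 8.55% of all genes, and 0 were lower. The groups did not overlap for 5 of the 12 with 6 arrays and for 8 with 5, all in the higher direction, beside 6.08% and 14.4% of all genes. The median of the 12 was 0.09, 0.20 and 0.30 above the wild-type mean on replicates 1, 2 and 3 labelled Hspa4-/-.

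Hspg2 encodes perlecan, the heparan sulfate proteoglycan of the basement membrane. It had log2 values of 9.92, 9.57 and 9.93 on the arrays labelled Hspa4-/- and 9.18, 9.41 and 9.26 on the wild-type arrays, with no overlap. Its difference was 0.53 ± 0.11 (SE, adjusted p = 0.210) with 6 arrays and 0.47 ± 0.11 (adjusted p = 0.112) with 5.

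Pxdn, peroxidasin, which makes the sulfilimine bond between type IV molecules, had 8.78, 9.00 and 9.21 against 8.54, 8.69 and 8.61, also with no overlap. Its difference was 0.38 ± 0.10 (adjusted p = 0.247) and 0.49 ± 0.09 (adjusted p = 0.0588). Sparc, which binds collagens IV and I, had 9.77, 10.17 and 10.20 against 9.79, 9.80 and 9.80. The library labelled Hspa4-/- 1 lay with the wild type for Sparc, and the difference was 0.25 ± 0.11 with 6 arrays and 0.39 ± 0.07 with 5 (adjusted p = 0.0571). The laminin chains Lama5, Lamb1 and Lamc1 were at 0.34, 0.22 and 0.17 with 6 arrays and at 0.27, 0.33 and 0.24 with 5. The laminin chains Lama4 and Lamb2 were at 0.03 and 0.18 with 6 arrays and at 0.15 and 0.07 with 5. The nidogens Nid1 and Nid2 were at 0.07 and 0.25 with 6 arrays and at 0.10 and 0.30 with 5.

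**Figure D5:**
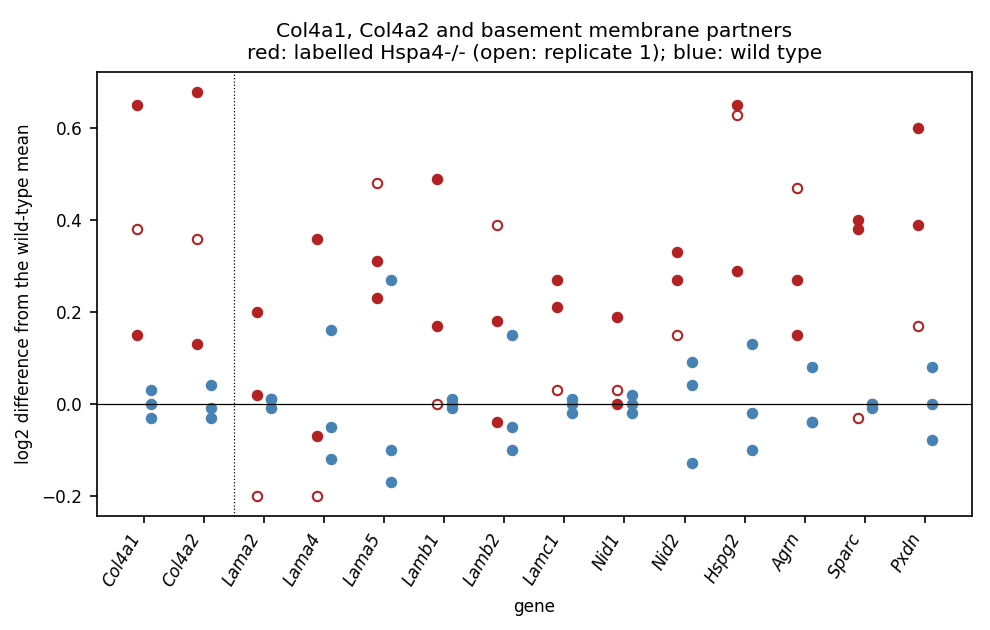
Log2 difference from the wild-type mean (y axis) of Col4a1, Col4a2 and 12 basement membrane partners (x axis), 1 point per array. Red points are arrays labelled Hspa4-/- (open, replicate 1) and blue points wild-type arrays; red points lie above blue ones for Col4a1, Col4a2, Hspg2, Agrn, Nid2, Lamc1 and Pxdn, and overlap for the other 7 genes.

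Collagen receptors and proteases gave 0 calls with all arrays of either form. Of 10 measured receptors, 1 was higher and 1 lower at an unadjusted p under 0.05 in both forms, beside 11.2% and 14.9% of all genes. The higher one was Adgrg1, an adhesion receptor that binds type III collagen, at 0.42 with 6 arrays and 0.44 with 5 (adjusted p = 0.248 and 0.172). It passed without wild-type replicate 2 (0.56 and 0.59, adjusted p = 0.0382 and 0.0108). Leaving out that array raised the genes called over the whole array from 0 to 112 with 6 arrays and from 89 to 875 with 5. The lower one was Ddr2, the receptor kinase for fibrillar collagen, at -0.28 and -0.26 (adjusted p = 0.213 and 0.139). Itga1, the integrin chain that binds type IV collagen, was at -0.20 and -0.11 (adjusted p = 0.505 and 0.636).

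Of 12 measured proteases and inhibitors, 2 were higher and 1 lower at an unadjusted p under 0.05 with 6 arrays, and 4 and 2 with 5, beside the same shares of all genes. Timp3, an inhibitor bound to the matrix, was at 0.59 and 0.70 (adjusted p = 0.312 and 0.182). With 5 arrays Timp3 was 0.32 without replicate 2 labelled Hspa4-/- and 1.09 without replicate 3, and it passed with a replicate block (0.64, adjusted p = 0.0287). Mmp14, a collagenase of the cell surface, was at 0.27 and 0.39 (adjusted p = 0.453 and 0.148), and with 5 arrays it was 0.54 and 0.23 without those replicates. Ctsk, a lysosomal collagenase, was at -0.29 and -0.31 (adjusted p = 0.289 and 0.213).

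Markers of the cells that could make these collagens are given beside them. Of 10 fibroblast markers 0 passed, with a median difference of -0.01 with 6 arrays and 0.02 with 5, and their log2 summed signal was 12.37 to 12.50 on the arrays labelled Hspa4-/- and 12.34 to 12.46 on the wild-type arrays. Of 7 myofibroblast markers 0 passed, with medians of 0.03 and 0.05 and sums of 11.59 to 12.24 and 11.59 to 11.89. A sum mostly follows its genes of highest signal, here Acta2, which is also in the smooth muscle list. Acta2 had 11.15, 11.66 and 11.87 on the arrays labelled Hspa4-/- and 11.54, 11.13 and 11.53 on the wild-type arrays. Of 10 endothelial markers 0 passed, with medians of 0.11 and 0.13 and sums of 12.94 to 13.00 and 12.98 to 13.02. The summed signals overlapped between the groups for these 3 cell types with all 6 arrays. Among the arrays labelled Hspa4-/-, the lowest myofibroblast and endothelial sums, 11.59 and 12.94, were those of replicate 1. With 5 arrays 3 of the 7 myofibroblast markers lay higher without overlap and 1 lower, beside 14.4% and 18.9% of all genes. The higher ones were Postn, Fn1 and Acta2, at 0.42, 0.41 and 0.36 with 5 arrays.

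Of 10 markers of smooth muscle cells and pericytes 0 passed, with medians of 0.11 and 0.19 and sums of 12.69 to 13.00 and 12.71 to 12.86. Among them Pdgfrb, the receptor that recruits pericytes, was at 0.29 with 6 arrays and 0.33 with 5 (adjusted p = 0.245 and 0.113). Abcc9, of the same list, was at -0.20 and -0.26 (adjusted p = 0.322 and 0.134), and Kcnj8 was at -0.11 in both forms. At an unadjusted p under 0.05, 3 were higher and 1 lower with 6 arrays, and 5 and 1 with 5. Over all genes 11.2% and 14.9% had such a p. The 9 macrophage markers summed to 10.46 to 10.54 and 10.60 to 10.68, without overlap, and 0 of them passed. Their medians were -0.07 with 6 arrays and -0.08 with 5, and 2 and 3 of the 9 differences were above 0. Mrc1 was at -0.50 and -0.45, and Cx3cr1 at 0.11 and 0.18. The part of any cell type in the values of Col4a1, Col4a2 and their partners was not tested.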

How the data were processed

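Ventricle RNA on 6 arrays (Affymetrix Mouse Gene 1.0 ST) had been extracted with Trizol and labelled with biotin per the labels' protocols. The authors deposited 1 log2 value per probe set and array, made with R 2.13.0 and affy per the submitters' processing notes. How background was corrected, arrays normalised and probes summarised is not stated in these sources. Of 21225 probe sets, 20239 had 1 gene symbol in the array's annotation, 0 had several, and the 986 with none were left out. Pairs of arrays shared 11 to 30 identical values.

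Values were used as deposited. Groups came from the labels, and limma 3.58.1 in R 4.3.3 (lmFit, eBayes) was fitted over all 20239 genes, without covariates and with Benjamini-Hochberg adjustment at 0.05, on 6 arrays and on 5. The p-values measure the spread between these arrays. The main fit did not pair arrays by replicate number. Across groups, the deviations of same-numbered arrays from their group means correlated at -0.17, 0.09 and -0.25. The highest value, 0.33, was that of Hspa4-/- 1 with wild-type replicate 3. With so few arrays these values cannot exclude a pairing.

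The collagen chains, their types, the 6 partner lists, the 13 marker lists and the tests were chosen with earlier results of these data known. Named were 20 listed chains, any other chain with an unadjusted p under 0.05, and the 3 genes of each partner list with the smallest p, taking for each gene the smaller of its p-values on 6 and on 5 arrays. Col10a1, Col6a6, the other chains, the within-array shifts of partner chains and the remaining genes were named after their values were seen. Not among the named probe sets, and not analysed here, were Col21a1, Fkbp10, Mia3, Adamts2, Gp6, Mmp15 and Runx2. RefSeq tables (GRCm38.p6) gave promoter windows and neighbouring genes. Alternatives were filters on the lowest 25% and 50% of genes, quantile normalisation, subtracted array medians, array weights, a prior variance that follows the mean, a replicate block, the mean over chains, and leaving out each array.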

Additional observations from a re-analysis of the deposited data

How the results depend on the processing

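No collagen chain passed under any of the alternatives run on 6 or on 5 arrays, with each array left out included. The adjusted p of Col4a1 ran from 0.182 to 0.794 with 6 arrays and from 0.0572 to 0.688 with 5, and that of Col4a2 from 0.199 to 0.794 and from 0.0540 to 0.738. The chains with an unadjusted p under 0.05 with 6 arrays were 4 with array weights and 4 with the replicate block. When 1 array was left out they ranged from 2 to 4 with 6 arrays and from 1 to 6 with 5. Genes called with 6 arrays were 2 without the lowest 25% of genes, 2 without the lowest 50%, 115 with array weights and 2 with the replicate block, and 0 to 112 with 1 array left out (112 without wild-type replicate 2). With 5 arrays they were 156, 167, 321 and 134 in the same order and 36 with array medians subtracted. They ranged from 2 (without wild-type replicate 3) to 875 (without wild-type replicate 2). Hspa4 passed with 6 arrays and array weights (-2.54, adjusted p = 0.0488), and ran from -2.89 to -1.54 with 1 array left out.

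The basement membrane median was 0.11 with 6 arrays and 0.07 with 5 as a mean over the chains, and 0.22 and 0.21 without the lowest 50% of genes, which leaves out chains with low values. With 5 arrays and 1 left out it ran from -0.06 to 0.02. The network median with 5 arrays was 0.00 without the lowest 25% and 0.00 without the lowest 50%, and the median of the other types ran from -0.10 to -0.01. Leaving out an array labelled Hspa4-/- from the 5 leaves 1, which is assumed to vary like the others.

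Chains near 0 changed sign. Quantile normalisation gave, with 6 arrays, Col1a2 -0.01, Col5a1 0.00, Col6a1 -0.02 and Col18a1 -0.01, and with 5, Col5a1 -0.02, Col5a2 -0.04, Col4a5 -0.03 and Col6a1 -0.04. Array weights gave, with 6, Col1a2 -0.04, Col3a1 -0.01, Col4a5 -0.01, Col6a1 -0.10, Col6a2 -0.02, Col8a2 0.02 and Col18a1 -0.03, and with 5, Col6a1 -0.04. Subtracted medians gave Col18a1 0.00 with 6, and the replicate block Col4a5 0.00 with 5. With 1 array left out of 6, the ranges that cross 0 were -0.02 to 0.02 (Col12a1), -0.21 to 0.10 (Col15a1), -0.06 to 0.06 (Col18a1), -0.10 to 0.08 (Col1a2), -0.11 to 0.14 (Col3a1), -0.10 to 0.02 (Col4a4), -0.02 to 0.13 (Col4a5), -0.10 to 0.03 (Col4a6), -0.11 to 0.00 (Col5a2), -0.12 to 0.12 (Col6a1), -0.06 to 0.11 (Col6a2) and -0.06 to 0.08 (Col8a2). Out of 5 they were -0.02 to 0.07 (Col12a1), -0.33 to 0.29 (Col15a1), -0.12 to 0.24 (Col1a2), -0.06 to 0.34 (Col3a1), -0.12 to 0.16 (Col4a5), -0.01 to 0.05 (Col5a1), -0.11 to 0.12 (Col5a2), -0.17 to 0.21 (Col6a1), -0.03 to 0.19 (Col6a2), -0.21 to 0.04 (Col6a3), -0.01 to 0.14 (Col8a1) and -0.16 to 0.05 (Col8a2). With 5 arrays P3h2, Pxdn and Sparc passed under both filters and array weights (adjusted p 0.0299 to 0.0476) and, from the 5, without wild-type replicate 2. P3h2 (0.0395) and Timp3 (0.0287) passed with the replicate block and Lox with array weights (0.0477). Hspg2, Lox, Adgrg1, Bgn, Furin and Ogn also passed without wild-type replicate 2 (adjusted p 0.0108 to 0.0473). The cause of these changes was not tested.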

Other observations

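The mesothelium and epicardium, the sheet of cells that covers the heart, had the lowest median difference of the 13 marker lists. All 6 markers were measured and all lay below the wild-type mean in both forms, with a median difference of -0.23 with 6 arrays and -0.29 with 5. With 5 arrays 2 of the 6 passed in limma's test, both lower, beside 0.440% of all genes (0.208% lower): Upk1b fell by 0.90 and Upk3b fell by 0.78 on the log2 scale (adjusted p = 0.0330 and 0.0173). Upk1b had 6.42, 5.97 and 5.86 on the arrays labelled Hspa4-/- and 7.03, 6.53 and 6.88 on the wild-type arrays, with no overlap. Upk3b had 6.73, 6.08 and 6.05 against 6.92, 6.69 and 6.92, and the library labelled Hspa4-/- 1 lay within the wild-type range. With 6 arrays neither passed (adjusted p = 0.210 and 0.269), though Upk1b passed with array weights (-0.86, adjusted p = 0.0488). Both calls were lost when either remaining array labelled Hspa4-/- or wild-type replicate 1 or 3 was left out (adjusted p up to 0.228 for Upk1b and 0.144 for Upk3b), and that of Upk1b with array medians subtracted (0.0568). The log2 summed signal of the list was 8.74 to 9.06 and 9.06 to 9.22. The mesothelial markers and the collagen chains were not tested against each other.

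Of 10 heart muscle cell markers, all had a difference above 0 in both forms, where 45.8% and 43.3% of all genes did. The differences ran from 0.03 to 1.80 with 6 arrays and from 0.01 to 2.32 with 5. With 5 arrays 1 marker passed, beside 0.440% of all genes (0.232% higher). It was Nppa, the atrial natriuretic peptide gene, a marker of loaded ventricle, with 9.43, 10.52 and 11.49 on the arrays labelled Hspa4-/- and 8.62, 8.94 and 8.50 on the wild-type arrays (difference 2.32, adjusted p = 0.0127). With 6 arrays the difference was 1.80 (adjusted p = 0.213; 1.95 and 0.0488 with array weights), and the call with 5 arrays was lost without wild-type replicate 1 (0.0909) or 3 (0.144). Among the arrays labelled Hspa4-/-, replicate 3 was the highest for Nppa, Col4a1, Col4a2 and Col1a1. Replicate 2 was lower than replicate 1 for these 3 collagen chains and higher for Nppa. The 7 skeletal muscle genes had medians of 0.01 with 6 arrays and -0.02 with 5, with 0 calls. Their sums were 10.77 to 10.84 and 10.57 to 10.67 and mostly follow Ckm, the gene of highest signal. Ckm had 10.43, 10.42 and 10.51 on the arrays labelled Hspa4-/- and 10.22, 10.30 and 10.12 on the wild-type arrays. The 6 valve genes had medians of 0.08 and 0.19 with 0 calls. The 5 Schwann cell genes measured and the 5 adipocyte genes had medians of -0.02 and -0.07 with 6 arrays and -0.05 and -0.07 with 5, with 0 calls.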
